A study of Oryza sativa with 18 samples.

Results

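The 6 h response of rice leaf sheath to the brown planthopper was compared between 2 lines as a difference of differences: the change from 0 h to 6 h in NIL-BPH9 minus the change from 0 h to 6 h in 9311. The 12 arrays of 0 h and 6 h, chosen by their titles, hold this comparison, out of 18 arrays in the series, and 3 biological replicates stood in each of 4 groups. 9311 is labelled susceptible and NIL-BPH9, a near-isogenic line named for the resistance gene BPH9, is labelled resistant. Plants were at the four-leaf stage. The 0 h plants of both lines were not infested, and the 6 h plants of both lines had carried planthoppers for 6 h. Within each line, infestation and time of day cannot be told apart, since the uninfested plants were all of 0 h. The levels of the other 6 arrays, of 3 h infestation, take no part in the difference. These arrays served as a separate set of plants for each gene found. They did count in the choice of genes to test and in the estimate of spread. In all, 16053 genes had a probe set (the array's group of probes for a transcript) bright enough to test. Levels are log2 signals from the deposited table and differences are in log2 units, where a difference of 1 is a 2-fold change.

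The brown planthopper feeds on phloem sap through a stylet that it pushes into the leaf sheath. Rice genes for planthopper resistance such as BPH9 encode receptors of the NLR class, which start defence signalling inside the cell. Feeding and wounding raise jasmonate, a lipid hormone whose signal ends in the destruction of JAZ repressors and in their renewed synthesis, so JAZ transcripts are commonly read as a mark of jasmonate signalling. Rice also answers attack with volatile terpenes and with diterpene phytoalexins. A response that differs between lines can arise in several ways. The lines may part after infestation, they may be apart before it and part further, or they may part before it and meet later.

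Each gene was therefore placed by a test on the mean of its line differences at 0 h and 6 h. A gene was called from the 6 h level when that mean passed with the sign of the line difference in the response, and from the 0 h level when it passed with the opposite sign. A gene whose mean did not pass was left as not told apart. This mean and the difference in the response are uncorrelated in a design with equal groups.

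Several facts of the arrays bear on the values. The 3' to 5' signal ratio of 5 control pairs, a measure of RNA integrity, was 1.69 ± 0.08 (SD, log2) in NIL-BPH9 and 1.61 ± 0.04 in 9311 at 0 h, and 1.70 ± 0.03 and 1.77 ± 0.09 at 6 h (n = 3 arrays each; two-sided exact permutation p = 0.2 and 0.2, where the smallest possible is 0.1). This mean covers pairs that went both ways. At 0 h, 4 of the 5 pairs did not overlap between the lines (exact permutation p = 0.1 each, n = 3): the ratio was higher in NIL-BPH9 by 0.11 and 0.39 for the pairs of actin probe sets and by 0.23 for gapdh, and the difference was -0.19 for cyclophilin. For gapdh it was -0.23 at 3 h (exact permutation p = 0.1, n = 3). The part of RNA integrity in the 0 h class described below was not tested. Of 4 green leaf markers, 3 lay above the array median on all 18 arrays, and RBCS1 lay below it on all. Their summed linear signal overlapped between the lines at 0 h (86211 to 94128 in NIL-BPH9 and 77727 to 96164 in 9311). It was higher in NIL-BPH9 without overlap at 3 h (88414 to 89953 against 77951 to 80974) and at 6 h (96507 to 103807 against 87214 to 89147). Of 7 seed storage markers, 4 lay below the array median on every array, while GLUA-2 lay above it on all. The seed storage sum was 616 to 739 in NIL-BPH9 and 504 to 571 in 9311 at 0 h, without overlap, and overlapped at 3 h and 6 h. This sum follows GLUA-2, by far its brightest member, with means of 9.18 in NIL-BPH9 and 8.76 in 9311 at 0 h. The part of these marker shifts in the 6 h and 0 h classes was not tested. No pollen or root marker could be matched. The summed signal of 8 meristem and young leaf markers (KNOX and YABBY genes) was 8819 to 9077 in NIL-BPH9 and 9443 to 9642 in 9311 at 0 h, with no overlap, and 8553 to 9075 and 8678 to 9221 at 6 h. A linear sum follows its brightest members, here OsYAB1 (0 h means of 12.60 in 9311 and 12.50 in NIL-BPH9) and OsYAB2 (11.21 and 11.15). OsYAB3, OsYAB7 and OsYABBY7 also had higher means in 9311 at 0 h. OSH1 was level (6.58 and 6.59), and OSH71 (5.31 and 5.52) and OsYAB5 (8.57 and 8.90) had higher means in NIL-BPH9. None of the 8 was listed at 0. In whole sheath, fewer cells of a type and less RNA per cell cannot be told apart.

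One stretch of chromosome 8 stood apart by array group and is given before the results. Among 273 tested neighbours there, from LOC4344819 to LOC4345404 in the RefSeq order and chosen after their values were seen, several genes in the 3 uninfested NIL-BPH9 arrays lay near 9311, while all 6 infested NIL-BPH9 arrays, of 3 h and 6 h, lay far below. LOC4344881 stood at 7.77, 7.72 and 7.88 in uninfested NIL-BPH9 and between 8.01 and 8.31 in uninfested 9311. It stood at 1.0, 1.95 and 0.66 at 3 h and at 0.84, 0.00 and 0.00 at 6 h in NIL-BPH9. LOC4345381 was already lower in NIL-BPH9 at 0 h, at 8.97, 9.12 and 8.96 against 9.83, 9.9 and 9.84 in 9311. Its line difference at 0 h was -0.84 (adjusted p = 0.00148 in limma). At 6 h it stood at 3.79, 4.45 and 4.01 in NIL-BPH9, while 9311 held 9.94, 9.86 and 9.85. In the stretch, 66 genes (24.2%) passed for the line difference at 0 h, against 20.1% of all other genes. Over the array's genes, the 6 infested NIL-BPH9 arrays all lay below the other 12 by a mean of at least 1 for 25 genes (0.156% of those tested), and 17 of these 25 were in this stretch. They all lay above the others by at least 1 for 102 genes (0.635%), of which 11 were in the stretch. For the difference in the response, 57 of its genes (20.9%) passed, against 9.85% of all other genes. Of these 57 genes, 20 were higher and 37 lower. Whether the NIL-BPH9 plants of 0 h carried the same chromosome 8 segment as those of 3 h and 6 h was not tested. The main counts below are therefore also given without these 273 genes, and the 3 genes described below that lie in it (GER2, GER6 and SPS4) are marked as such.

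**Figure D1:**
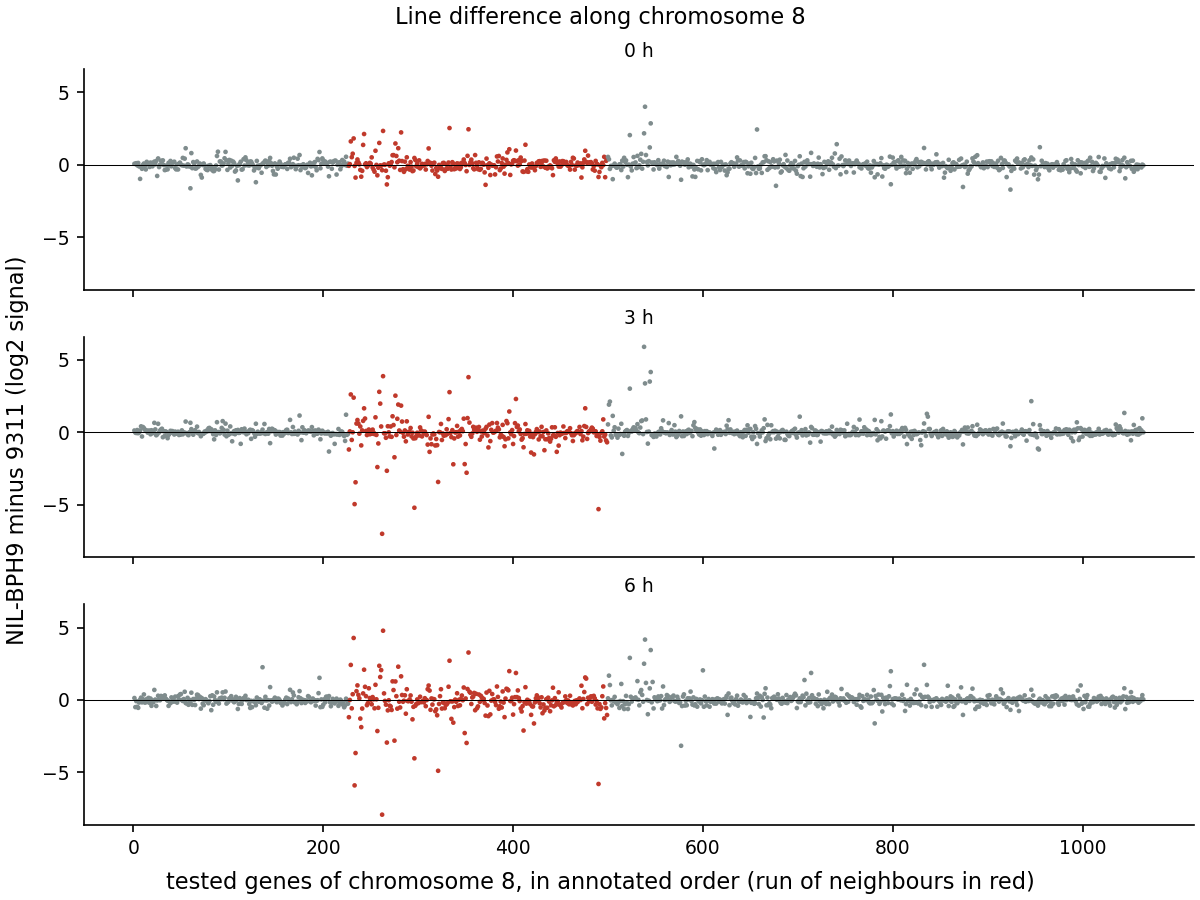
Line difference (NIL-BPH9 minus 9311, log2 signal, vertical axis) of 1064 tested genes of chromosome 8 in annotated order (horizontal axis), at 0 h, 3 h and 6 h. Each point is the difference of group means of 3 arrays, and the 273 genes of the run are red. Far negative points appear at 3 h and 6 h and not at 0 h.

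The line difference in the 6 h response passed for 1612 of 16053 genes (10.0%; limma with Benjamini-Hochberg adjustment, threshold 0.05). It was higher in NIL-BPH9 for 926 (5.77%) and lower for 686 (4.27%), so 57.4% of the calls were higher; when every array was first centred on its median, 544 genes passed and 75.4% of them were higher. The balance was 51.2% higher of 2502 genes with array weights, and it turned without 9311 0 h replicate 1, to 48.6% higher of 2734 genes. Without the chromosome 8 run, 1555 of 15780 genes passed, 906 higher and 649 lower. Most differences were small: their median size was 0.53, and 163 genes differed by at least 1, 108 higher and 55 lower. The chromosome 8 run held 19 of the 55 lower ones and 4 of the 108 higher ones. 790 of the 1612 genes passed in each of the 12 fits that left out 1 array. The number passing depended on single arrays: it was 2734 without 9311 0 h replicate 1, and 989, 1028 and 1061 without 9311 6 h replicate 2, NIL-BPH9 0 h replicate 3 and NIL-BPH9 6 h replicate 2.

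Of the 926 higher genes, 176 (1.10% of those tested) came from the 6 h level, 394 (2.45%) from the 0 h level and 356 (2.22%) were not told apart. Of the 686 lower genes, 132 (0.822%) came from the 6 h level, 110 (0.685%) from the 0 h level and 444 (2.77%) were not told apart. For reference, the line difference passed for 20.1% of tested genes at 0 h (9.11% higher and 11.0% lower in NIL-BPH9), for 15.7% at 6 h (7.89% and 7.84%) and for 24.5% as the mean of both times (11.3% and 13.2%). The commonest placed class thus held genes that were lower in NIL-BPH9 before infestation. By array, the lines stood apart without overlap at 6 h for all 176 higher and 132 lower genes of the 6 h class. At 0 h they did so for all 394 and 110 genes of the 0 h class. Both classes were set on these same arrays, so such a gap in a named gene is no separate support. At 0 h, the lines overlapped for 99 of the 176 and 90 of the 132. The line difference already passed at 0 h as higher in NIL-BPH9 for 57 of the 176, and as lower for 4. Of the 132, it already passed at 0 h as lower for 22 and as higher for 1. Without the chromosome 8 run, the 6 h class held 161 higher and 107 lower genes and the 0 h class 391 and 109.

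**Figure D2:**
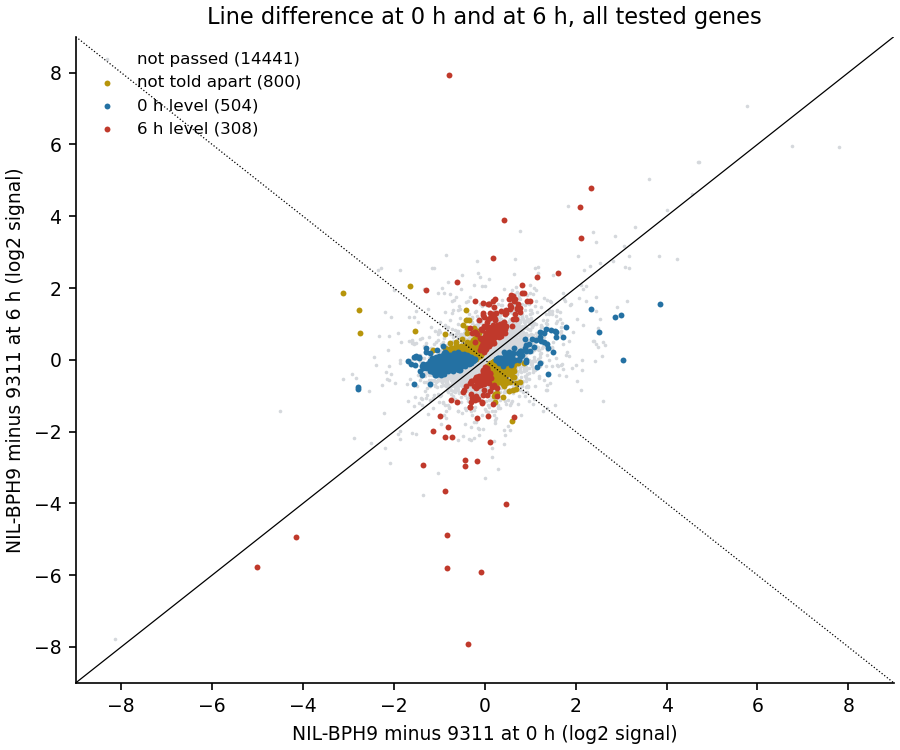
Line difference at 0 h (horizontal axis) against that at 6 h (vertical axis), both NIL-BPH9 minus 9311 in log2 signal, for 16053 genes. Each point is a gene, coloured by where its difference in the response came from; the solid line marks equal differences at both times and the dotted line opposite ones. The 504 genes of the 0 h class lie along the horizontal axis, mostly to the left, and the 308 of the 6 h class along the vertical axis.

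The response of each line was then read for each class. The 6 h response passed for 25.2% of tested genes in NIL-BPH9 (4038) and for 11.1% in 9311 (1783). The gap between the lines depended on the setting. With array weights, 4776 genes passed in NIL-BPH9 and 4089 in 9311. The counts were 2383 and 1784 without NIL-BPH9 0 h replicate 3, and 5212 and 2367 without 9311 0 h replicate 3. In NIL-BPH9, 12.2% of tested genes rose and 13.0% fell at 6 h; in 9311, 6.37% rose and 4.74% fell. Of the 176 higher genes of the 6 h class, 82 rose in both lines and 67 rose in NIL-BPH9 and did not pass in 9311. Of the 394 higher genes of the 0 h class, 173 fell in 9311 and did not pass in NIL-BPH9, 103 rose in NIL-BPH9 and did not pass in 9311, and 77 rose in NIL-BPH9 and fell in 9311. Of the 132 lower genes of the 6 h class, 102 fell in NIL-BPH9 and did not pass in 9311. Of the 110 lower genes of the 0 h class, 49 rose in 9311 and did not pass in NIL-BPH9.

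The 3 h plants, whose levels take no part in the difference, gave a reading of each class from other plants. Their arrays counted in the estimate of spread that set the calls, and 855 genes passed with the 12 arrays alone. At 3 h the line difference passed for 10.0%: 5.71% of all tested genes were higher and 4.31% lower in NIL-BPH9. Of the 176 higher genes of the 6 h class, 101 were higher in NIL-BPH9 at 3 h and 12 lower, and of the 132 lower ones, 46 were lower and 3 higher. These counts include the chromosome 8 run, which held 15 of the 176 and 25 of the 132. The run was chosen after its 3 h values were seen, so the 3 h arrays are no separate reading for its genes. Of the 394 genes of the 0 h class that were lower in NIL-BPH9 before infestation, 12 were lower at 3 h, 32 were higher and 350 did not pass. Their median line difference was -0.62 at 0 h, 0.06 at 3 h and -0.04 at 6 h. Of the 110 genes that were higher in NIL-BPH9 at 0 h, 41 were still higher at 3 h, 17 were lower and 52 did not pass.

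Among the named genes of the 6 h class, a linalool synthase, 4 JAZ repressors and OsWRKY76 rose in both lines and further in NIL-BPH9. OsLIS, a linalool synthase that makes a volatile monoterpene, read 6.59, 6.16 and 6.57 in 9311 and 5.80, 6.19 and 5.47 in NIL-BPH9 at 0 h. At 6 h it read 7.76, 7.63 and 7.09 in 9311 and 9.61, 9.78 and 9.58 in NIL-BPH9. The lines overlapped before infestation. They stood apart at 6 h, as they did for every gene of the 6 h class. The rise was 14.3-fold in NIL-BPH9 and 2.08-fold in 9311, and the difference between them was 2.78 ± 0.32 (SE), adjusted p = 3.97e-05. In the 3 h plants, OsLIS was 5.8-fold higher in NIL-BPH9 (adjusted p = 2.79e-07).

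JAZ repressors, which hold back jasmonate-responsive transcription, differed in 4 of 12 measured members, all higher and all from the 6 h level. The median over the 12 was 0.27, against -0.02 over all tested genes. For this list and those below, the share over all tested genes was 10.0%, with 5.77% higher and 4.27% lower. TIFY11A read 6.52, 7.14 and 7.35 in NIL-BPH9 and 6.80, 6.73 and 7.20 in 9311 at 0 h, then 10.02, 10.01 and 10.07 and 8.79, 8.25 and 8.42 at 6 h. The lines overlapped at 0 h and, as for every gene of the 6 h class, did not at 6 h. The difference in the response was 1.45 ± 0.28 (SE), adjusted p = 0.00381. TIFY11C differed by 1.35 ± 0.18 (SE), adjusted p = 0.000155, with a line difference of -0.05 at 0 h and 1.31 at 6 h. TIFY11E (1.14 ± 0.16 (SE), adjusted p = 0.000299) and TIFY11B (0.46 ± 0.08 (SE), adjusted p = 0.00252) were higher in NIL-BPH9 already at 0 h, by 0.54 and 0.68, and more so at 6 h, by 1.69 and 1.14. All 4 also rose in 9311, from 2.34-fold (TIFY11C) to 3.24-fold (TIFY11B). TIFY11A, TIFY11C and TIFY11B are neighbours on chromosome 3, with no other gene between them in the RefSeq order. TIFY9 showed the widest difference of the family, 1.75 ± 0.97 (SE), and did not pass (adjusted p = 0.306).

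Of the enzymes that make jasmonate, 0 of 15 passed in limma (2 at an unadjusted p under 0.05), with differences from -0.19 to 1.02 and a median of 0.17. CM-LOX1, a lipoxygenase, had the highest of these values, 1.02 ± 0.69 (SE) (adjusted p = 0.428), and AOS2, an allene oxide synthase, had 0.58 ± 0.28 (SE) (adjusted p = 0.234).

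WRKY factors are transcription regulators of plant defence, and 2 of 6 measured ones passed, both higher and from the 6 h level (median 0.45). OsWRKY76 read 7.44, 7.56 and 7.62 in 9311 and 8.61, 8.16 and 8.42 in NIL-BPH9 at 0 h, and 9.08, 8.92 and 8.90 and 10.76, 10.88 and 10.87 at 6 h. NIL-BPH9 was above 9311 on every array at both times, by 0.86 at 0 h and 1.87 at 6 h. The difference in the response was 1.01 ± 0.15 (SE), adjusted p = 0.000425. OsWRKY71 differed by 1.01 ± 0.25 (SE), adjusted p = 0.0217, and did not pass without 9311 6 h replicate 1 or without NIL-BPH9 0 h replicate 2 (adjusted p = 0.052 and 0.0538). With the probe sets of a gene averaged, 1 WRKY gene passed.

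Diterpene phytoalexin genes, which build antimicrobial compounds from geranylgeranyl diphosphate, passed in 3 of 12 cases, all higher and from the 6 h level (median 0.54). None of these 3 passed for a rise in NIL-BPH9 at 6 h. The count was 1 without a filter on dim probe sets, with a filter at the 75th percentile and with the 12 arrays alone. CYP71Z7, a cytochrome P450 of the chromosome 2 cluster, read 7.54, 7.93 and 7.84 in 9311 at 0 h and 6.86, 6.19 and 6.74 at 6 h, a fall of 1.17 on the log2 scale. In NIL-BPH9 it read 8.38, 8.50 and 8.88 and then 8.91, 8.25 and 8.86, a change of 0.09 that did not pass (adjusted p = 0.819). The difference in the response was 1.26 ± 0.30 (SE), adjusted p = 0.0151. CPS2, a diterpene cyclase, and CYP99A2 of the chromosome 4 cluster passed with differences of 1.23 ± 0.36 (SE) and 1.03 ± 0.28 (SE), but only in 2 and 4 of the 12 fits without 1 array, and both failed when any NIL-BPH9 6 h array was left out (adjusted p from 0.0676 to 0.0919 and from 0.0538 to 0.0776). CPS2 also failed without 9311 0 h replicates 1 or 2, 9311 6 h replicates 2 or 3 and any NIL-BPH9 0 h replicate, and CYP99A2 without 9311 0 h replicates 2 or 3, 9311 6 h replicate 2 and NIL-BPH9 0 h replicates 1 or 3.

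DXPS, which makes the first intermediate of the plastid pathway to terpene precursors, rose in NIL-BPH9 and did not pass in 9311. It read 7.33, 6.97 and 6.72 there at 0 h and 8.21, 8.20 and 7.80 at 6 h, against 7.05, 7.13 and 6.97 and 6.73, 6.99 and 6.78 in 9311. The difference in the response, which is the test of that contrast between the lines, was 1.28 ± 0.26 (SE), adjusted p = 0.00569. OsVIT1.2, a vacuolar iron transporter gene, differed by 1.19 ± 0.25 (SE), adjusted p = 0.00625: it fell in 9311 by 0.73 and its change of 0.46 in NIL-BPH9 did not pass. LHCP, a light-harvesting protein gene, differed by 0.57 ± 0.12 (SE), adjusted p = 0.00773 and was also 1.58-fold higher in NIL-BPH9 at 3 h.

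**Figure D3:**
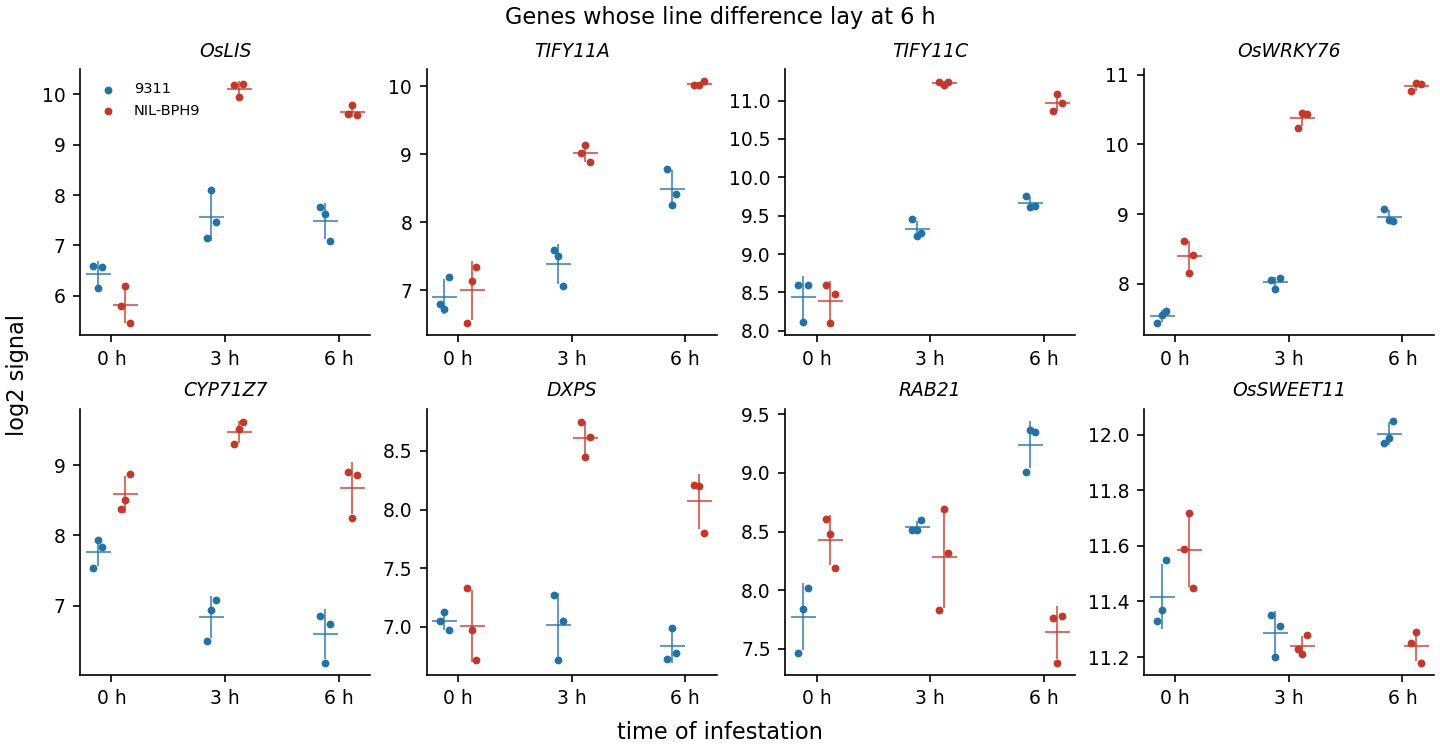
Log2 signal (vertical axis) of 8 genes of the 6 h class on each array at 0 h, 3 h and 6 h (horizontal axis), 9311 in blue and NIL-BPH9 in red; points are the 3 arrays of a group, bars the mean and SD. The lines stand further apart at 6 h than at 0 h, with NIL-BPH9 above 9311 for OsLIS, TIFY11A, TIFY11C, OsWRKY76, CYP71Z7 and DXPS at 6 h and below it for RAB21 and OsSWEET11.

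Among genes with the lower response in NIL-BPH9, RAB21, a dehydrin gene that responds to abscisic acid and water loss, went in opposite directions in the lines. It read 7.46, 7.84 and 8.02 in 9311 at 0 h and 9.01, 9.37 and 9.35 at 6 h, and in NIL-BPH9 8.61, 8.48 and 8.19 and then 7.76, 7.38 and 7.78. The order of the lines was thus turned, NIL-BPH9 being above 9311 on every array at 0 h and below it on every array at 6 h. The difference in the response was -2.25 ± 0.27 (SE), adjusted p = 5.44e-05. At 3 h the line difference of -0.26 did not pass (adjusted p = 0.531). It was the 1 drought and LEA gene of 12 to pass.

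Sugar genes passed in 5 of 25 cases, all lower (median -0.11), 3 of them from the 6 h level. Over all tested genes, 4.27% passed lower. OsSWEET11, a sucrose transporter known from grain filling, read 11.33, 11.37 and 11.55 in 9311 at 0 h and 11.97, 11.99 and 12.05 at 6 h, and in NIL-BPH9 11.59, 11.72 and 11.45 and 11.25, 11.29 and 11.18. Its difference in the response was -0.93 ± 0.10 (SE), adjusted p = 1.39e-05, and the lines overlapped at 0 h. SPS4, a sucrose phosphate synthase in the chromosome 8 run, differed by -1.06 ± 0.14 (SE), adjusted p = 0.00017. OsSUS5, a sucrose synthase, differed by -0.49 ± 0.10 (SE), adjusted p = 0.00727. The list held 3 lower genes without 9311 6 h replicate 2, NIL-BPH9 0 h replicate 3 or any 1 of the NIL-BPH9 6 h arrays, and 2 after median centring. LAC4, a laccase that acts in lignin polymerisation, rose in 9311 (0.40) and fell in NIL-BPH9 (-0.54), a difference of -0.94 ± 0.14 (SE), adjusted p = 0.000332. HIRL2 read 8.64, 8.68 and 8.68 in NIL-BPH9 at 0 h and 7.97, 7.66 and 7.56 at 6 h, with 9311 between 8.40 and 8.69 at both times, and differed by -0.99 ± 0.18 (SE), adjusted p = 0.00214. GER2, a germin-like gene of the chromosome 8 run, was already lower in NIL-BPH9 at 0 h (-0.82) and more so at 6 h (-1.88), with -1.06 ± 0.09 (SE), adjusted p = 1.3e-06 for the response.

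Of the lists examined, cell division genes and leaf growth factors gave the highest counts in the 0 h class, with higher levels in uninfested 9311 than in uninfested NIL-BPH9. Cell division genes passed in 17 of 41 cases, all with the higher response in NIL-BPH9, and 16 came from the 0 h level. The median over the 41 was 0.53 for the response, -0.71 for the line difference at 0 h and -0.08 at 6 h. The count stayed between 14 and 19 over the 12 fits without 1 array. At 3 h the median line difference was 0.04.

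MCM4, a subunit of the helicase that opens DNA for replication, read 10.05, 10.02 and 9.82 in 9311 and 8.92, 8.48 and 9.11 in NIL-BPH9 at 0 h. At 6 h it read 9.13, 9.33 and 9.17 and 8.96, 9.10 and 9.05. NIL-BPH9 was below 9311 on every array at both times, with a line difference of -1.13 at 0 h and of -0.18 at 6 h that did not pass (adjusted p = 0.445), and above it on every array at 3 h. The difference in the response was 0.95 ± 0.18 (SE), adjusted p = 0.0036, and MCM4 fell by 0.75 in 9311 and changed by 0.20 in NIL-BPH9 (adjusted p = 0.315). OsPCNA, the sliding clamp of DNA polymerase, read 11.77, 11.83 and 11.92 in 9311 and 10.84, 10.88 and 10.87 in NIL-BPH9 at 0 h, and 11.07, 11.16 and 11.27 and 10.97, 11.11 and 11.09 at 6 h. Its difference in the response was 0.86 ± 0.09 (SE), adjusted p = 1.36e-05, with a fall in 9311 and a small rise of 0.19 in NIL-BPH9. H2B.10, a histone gene, differed by 1.12 ± 0.15 (SE), adjusted p = 0.000129, and OsRPA70b, a subunit of the protein that covers single-stranded DNA, by 0.95 ± 0.12 (SE), adjusted p = 0.000114. MCM5, of the same helicase, passed with 0.88 and CDKB2-1, a mitotic cyclin-dependent kinase, with 0.86. ORC1 and ORC3, of the complex that marks replication origins, had values of similar size (0.96 and 0.98) and did not pass (adjusted p = 0.0571 and 0.0963).

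Growth-regulating factors, transcription factors of young growing leaf, and YABBY factors, which set leaf polarity, showed the same class. In the list of 22 GRF, YABBY and KNOX genes, 8 passed higher and 1 lower, and 7 came from the 0 h level. OsGRF6 read 10.16, 10.16 and 10.24 in 9311 and 9.11, 9.0 and 8.98 in NIL-BPH9 at 0 h, and 9.67, 9.78 and 9.81 and 9.67, 9.54 and 9.64 at 6 h. It fell in 9311 by 0.43 and rose in NIL-BPH9 by 0.58, a difference of 1.02 ± 0.13 (SE), adjusted p = 9.07e-05. OsGRF5 (1.61 ± 0.29 (SE), adjusted p = 0.00214) and OsYAB3 (1.51 ± 0.31 (SE), adjusted p = 0.00692) also fell in 9311 and rose in NIL-BPH9 from 0 h to 6 h. At 3 h both lay below their 0 h and 6 h means in each line. OsGRF5 had means of 8.64, 6.42 and 7.78 in 9311 and 7.10, 6.58 and 7.85 in NIL-BPH9 at 0 h, 3 h and 6 h. OsYAB3 had 8.29, 6.00 and 7.51 in 9311 and 7.01, 6.70 and 7.73 in NIL-BPH9. OsGRF1 (1.06 ± 0.19 (SE), adjusted p = 0.00268) rose in NIL-BPH9 by 0.91 with a change of -0.15 in 9311 that did not pass. The count of higher genes was 5 with a filter at the 75th percentile. OSH1, a meristem KNOX gene, read 4.21, 2.42 and 3.29 in NIL-BPH9 and 6.72, 6.46 and 6.64 in 9311 at 6 h, without overlap. It had the lowest difference of the list, -3.31 ± 1.20 (SE), which did not pass (adjusted p = 0.105). The summed meristem and young leaf markers, some in this list, were higher in 9311 on every array at 0 h, as given above. Their sum was also higher in 9311 at 3 h (9379 to 9912 against 9100 to 9227 in NIL-BPH9). It follows OsYAB1 and OsYAB2, and the means of OSH1, OSH71 and OsYAB5 were not higher in 9311 at 0 h. The part of these markers in these results and in the cell division counts was not tested.

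Cell wall genes passed in 8 of 33 cases, 7 higher and 1 lower, 5 of them from the 0 h level, with a median of -0.02. Over all tested genes, 5.77% passed higher and 4.27% lower. EXPA2, an expansin that loosens the wall for growth, rose in both lines but from unequal starts: it read 10.60, 10.78 and 10.90 in 9311 and 9.75, 9.85 and 9.77 in NIL-BPH9 at 0 h, and 11.38, 11.32 and 11.45 and 11.07, 10.92 and 11.0 at 6 h. Its difference in the response was 0.58 ± 0.10 (SE), adjusted p = 0.00114. EXPA5 differed by 0.66 ± 0.11 (SE), adjusted p = 0.000867, falling in 9311 and rising in NIL-BPH9. The median centring left 3 higher genes of this list, and the 12 arrays alone or a fit with no intensity trend left 4. Cytosolic ribosomal proteins passed in 8 of 24 cases, all higher (median 0.26), 5 from the 0 h level. With the probe sets of a gene averaged, 7 passed higher and 1 lower. Up to 2 passed lower without 1 array. The count of higher ones was 13 without 9311 0 h replicate 1. It was 5 without 9311 6 h replicate 1 or NIL-BPH9 6 h replicate 1. It was 4 without 9311 6 h replicate 2 or without replicate 2 or 3 of either NIL-BPH9 group. After median centring of the arrays it was 2. CMT3, a DNA methyltransferase of CHG sites, differed by 1.23 ± 0.22 (SE), adjusted p = 0.00258 and fell in 9311 by 0.91. Of 18 glutaredoxins, small redox enzymes, in a list matched by gene name, 3 passed, all higher: GRXC3 (1.21 ± 0.27 (SE), adjusted p = 0.0109), GRXS5 (0.43) and GRXS4 (0.56). With the probe sets of a gene averaged, 2 glutaredoxins passed higher.

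**Figure D4:**
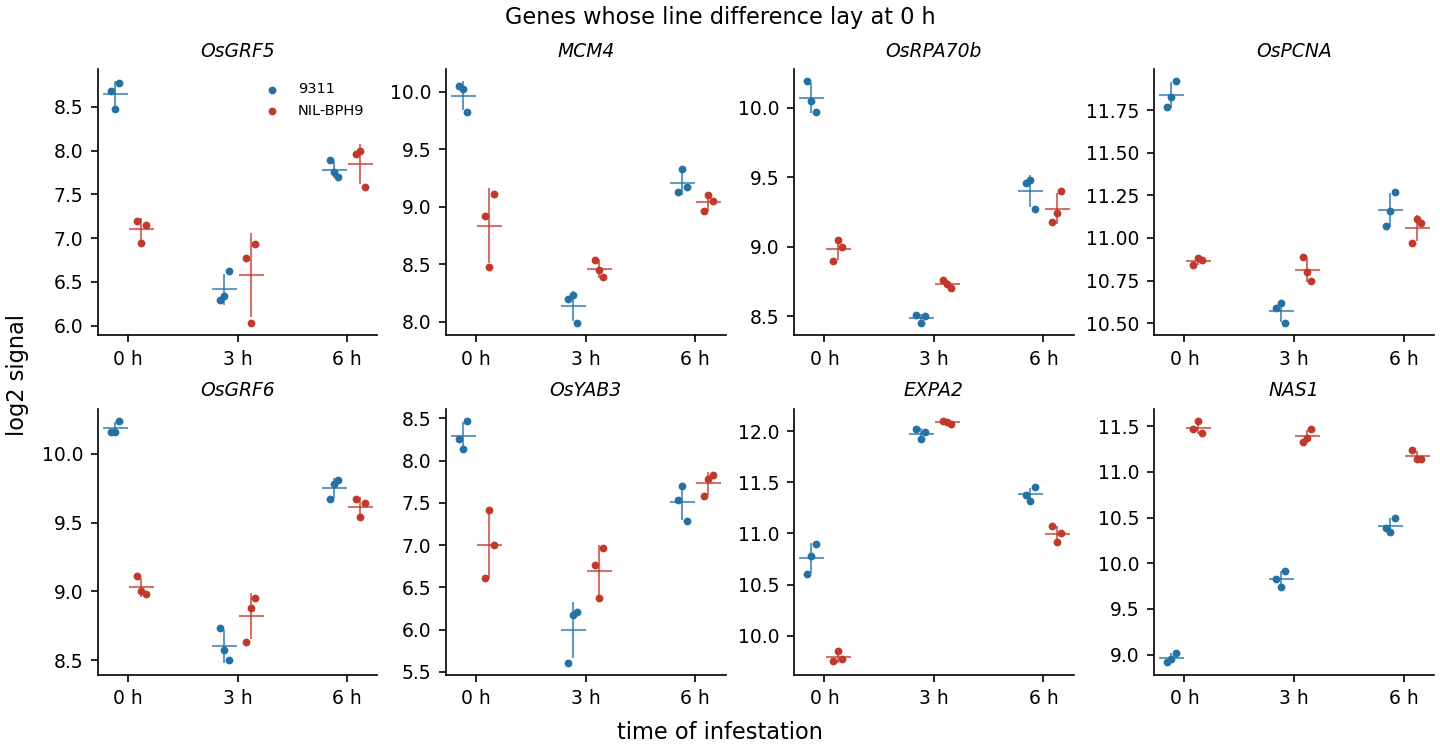
Log2 signal (vertical axis) of 8 genes of the 0 h class on each array at 0 h, 3 h and 6 h (horizontal axis), 9311 in blue and NIL-BPH9 in red; points are the 3 arrays of a group, bars the mean and SD. The lines stand apart at 0 h, with 9311 above NIL-BPH9 for all but NAS1, and lie closer at 6 h.

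A smaller part of the 0 h class was higher in NIL-BPH9 before infestation. NAS1, a nicotianamine synthase whose product binds iron for transport, read 11.47, 11.56 and 11.43 in NIL-BPH9 and 8.92, 8.95 and 9.02 in 9311 at 0 h, a 5.75-fold difference. At 6 h it read 11.24, 11.14 and 11.14 and 10.39, 10.34 and 10.50, a 1.7-fold difference. The groups did not overlap at either time. The gap narrowed as 9311 rose 2.72-fold while NIL-BPH9 fell by 0.31 on the log2 scale, and the difference in the response was -1.76 ± 0.09 (SE), adjusted p = 1.81e-09. NAS2, its neighbour on chromosome 3, differed by -0.72 ± 0.14 (SE), adjusted p = 0.00389. Of 23 nicotianamine and iron genes, 5 passed lower and 1 higher (median -0.16): NAAT1 (-0.64) was also of the 0 h class, NAS3 (-0.56) of the 6 h class, and IRO3, an iron deficiency regulator, was not told apart (-1.11 ± 0.25 (SE), adjusted p = 0.0112).

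OC-I, a cysteine proteinase inhibitor, was higher in NIL-BPH9 on every array at 0 h (12.97, 13.05 and 12.98, against 12.42, 12.44 and 12.50 in 9311). By 6 h it had risen in 9311 (0.28) and fallen in NIL-BPH9 (-0.18), a difference of -0.47 ± 0.06 (SE), adjusted p = 0.000151. OSE727A, a trypsin inhibitor of the Bowman-Birk family, rose in both lines, 2.97-fold in 9311 and 1.85-fold in NIL-BPH9, and differed by -0.68 ± 0.10 (SE), adjusted p = 0.00026. These were the 2 called of 4 measured proteinase inhibitors. GH3.2, which conjugates auxin to amino acids, differed by -0.56 ± 0.12 (SE), adjusted p = 0.00993 and did not pass with each array centred on its median (adjusted p = 0.0653). OsPSAG, a photosystem I subunit, differed by -0.96 ± 0.21 (SE), adjusted p = 0.009, the calcium-linked kinase gene CIPK8 by -0.75 ± 0.15 (SE), adjusted p = 0.00451 and the heat stress factor HSF25 by -0.74 ± 0.15 (SE), adjusted p = 0.00474. GER6, a germin-like gene in the chromosome 8 run, was 2.59-fold higher in NIL-BPH9 at 0 h and 1.37-fold higher at 6 h, with -0.92 ± 0.17 (SE), adjusted p = 0.00253.

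The 800 genes that were not told apart could not be placed because the mean line difference of 0 h and 6 h did not pass. CAD6, a cinnamyl alcohol dehydrogenase of lignin synthesis, read 7.34, 6.09 and 6.72 in NIL-BPH9 at 0 h and 8.63, 8.73 and 8.49 at 6 h, and 6.74, 7.39 and 7.49 and 7.69, 7.62 and 7.60 in 9311. Its difference in the response was 1.46 ± 0.33 (SE), adjusted p = 0.0119, and it was 2.77-fold higher in NIL-BPH9 at 3 h. MAKIBA3 differed by 1.42 ± 0.30 (SE), adjusted p = 0.00721, rising in NIL-BPH9 and falling in 9311.

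In the other lists, calls ran in both directions or were few. The share called over all tested genes was 10.0%, with 5.77% higher and 4.27% lower. Of 67 calcium sensors and calcium kinases, 5 passed higher and 5 lower, with a median of -0.08; 2 and 2 passed with each array centred on its median. Of 22 lignin and phenylpropanoid genes, 2 passed higher and 3 lower. Auxin response genes passed in 6 of 50 cases, 5 of them lower, and heat shock proteins and factors in 7 of 41, 5 of them higher. Without NIL-BPH9 0 h replicate 3, 1 heat shock gene passed higher, and after median centring 0 auxin genes passed lower. With the probe sets of a gene averaged, 4 heat shock genes passed higher and 0 lower. In limma, 0 of 16 MAP kinases, 0 of 7 salicylate and NPR1-like genes, 0 of 11 chitinases and PR proteins and 0 of 22 nutrient transporters passed. At an unadjusted p under 0.05 these counts were 4, 1, 3 and 4. A p above the threshold does not show that these lists responded alike in the lines.

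**Figure D5:**
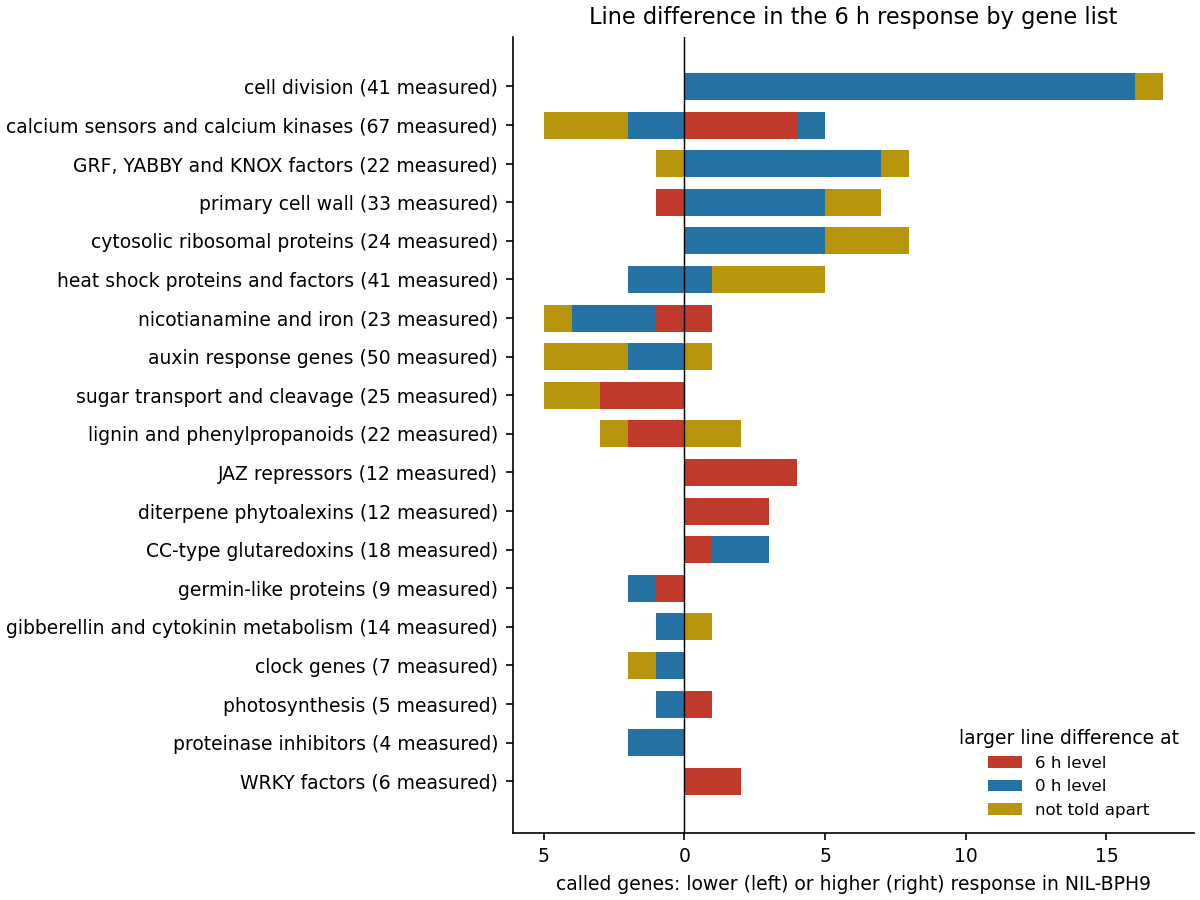
Number of called genes (horizontal axis) in each list with at least 2 such genes, lower response in NIL-BPH9 to the left and higher to the right, coloured by where the line difference was larger. Cell division is almost all of the 0 h class and higher, whereas JAZ repressors and diterpene phytoalexins are of the 6 h class.

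Opposite directions were read as a last class. Of all tested genes, 104 (0.648%) rose in NIL-BPH9 and fell in 9311 with the difference called, and 27 (0.168%) did the reverse. The 104 were placed in the 0 h class in 77 cases, and OsPCNA, OsRPA70b, OsGRF5, OsGRF6 and OsYAB3 were among them. The 27 held 9 of the 0 h class and 7 of the 6 h class, with NAS1, OC-I, RAB21, OsSWEET11, LAC4 and GER2 among them.

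LOC4335583 on chromosome 4, which has no other name in the tables used, was bright on the 6 infested NIL-BPH9 arrays alone. In NIL-BPH9 it was listed at 0 on all 3 arrays at 0 h and read 8.41, 8.27 and 8.44 at 3 h and 7.90, 7.76 and 8.55 at 6 h, and no 9311 array lay above 2.05. The 12 low arrays lie far under the array medians of 5.18 to 5.52, and the gene entered the test through infested NIL-BPH9 only, so no size of difference is given. LOC4335873 on the same chromosome read 7.22, 6.95 and 7.18 in NIL-BPH9 at 0 h and 10.54, 10.40 and 10.52 at 6 h, and 6.60, 6.80 and 6.40 in 9311 at 6 h, a difference of 3.47 ± 0.24 (SE), adjusted p = 3.95e-08. LOC4330542 on chromosome 2 differed by 3.23 ± 0.19 (SE), adjusted p = 5.47e-09 and rose in both lines, from 6.04, 5.72 and 5.96 to 9.66, 9.83 and 9.68 in NIL-BPH9 and from 6.97, 7.26 and 7.34 to 7.61, 7.88 and 7.83 in 9311. These 3 were chosen after their values were seen. Of the 102 genes higher on all 6 infested NIL-BPH9 arrays (0.635% of those tested), 15 were among 1405 tested on chromosome 4 and 15 among 1064 on chromosome 8. Genes of this set could enter the test through these 6 arrays alone, as LOC4335583 did. Chromosome 4 held 0 of the 25 that were lower on all 6. Whether the NIL-BPH9 plants of 0 h carried the same chromosome 4 segments as those of 3 h and 6 h was not tested.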

How the data were processed

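Leaf sheath RNA of 18 samples was labelled with biotin and hybridised to Affymetrix 1-colour rice arrays, per the labels' protocols. The deposited table holds log2 MAS5 signals, per the submitters' processing notes, and its scaling to a common level was read from the values. Its settings: not given in the sources used here. Precision is limited by the number of arrays.

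Probe sets were named through the platform annotation and a RefSeq gene table; names are symbols or listed synonyms. Control probe sets were left out. A probe set was tested if at or above the array median on at least 3 of 18 arrays, which left 33094 of 57194. Group means of all 18 arrays were fitted with limma 3.58.1 (intensity trend, Benjamini-Hochberg over all tested probe sets, threshold 0.05). Each gene took its brightest tested probe set. The members and lists, and the genes named, were chosen with earlier results of these data known. The rule for named genes took, per direction and origin class, the 5 largest differences among called genes that have a name and keep their direction without any 1 array, and per list the 4 largest among called members; the text prints a selection. Members that did not pass, OsPCNA, MCM5, CDKB2-1, OsSUS5, NAS3, NAAT1 and the LOC-numbered genes were added after their values were seen. Alternatives covered normalization, filter, array subset, intensity trend, array weights, replicate block and single arrays. Tested on simulated data of 33094 probe sets, the fit recovered 46 of 100 changes of 2-fold and 68 of 100 of 4-fold. The noise was independent and normal, and all changes were set in NIL-BPH9 at 6 h. Far fewer probe sets changed there than passed in the real data, which makes the adjusted threshold stricter. These values vary with the random draw and are not recovery rates for the real arrays.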

Additional observations from a re-analysis of the deposited data

Results flagged for a closer look

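From 0 h to 6 h, 104 genes rose in NIL-BPH9 and fell in 9311, and 27 did the reverse. The difference between the lines was tested by the interaction contrast in limma. The 3 h level was no part of this reading. Among the named genes of the first kind, the difference in the response was 1.61 for OsGRF5, 1.51 for OsYAB3, 1.42 for MAKIBA3, 1.02 for OsGRF6, 0.95 for OsRPA70b, 0.66 for EXPA5 and 0.56 for GRXS4. Among those of the second kind it was -2.25 for RAB21, -1.76 for NAS1, -1.06 for GER2 of the chromosome 8 run, -0.94 for LAC4, -0.93 for OsSWEET11 and -0.47 for OC-I. GRXS4 is a glutaredoxin gene.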

How the results depend on the processing

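Between 989 (without 9311 6 h replicate 2) and 2734 (without 9311 0 h replicate 1) genes passed for the difference in the response when 1 array was left out, 2544 to 3682 for the line difference at 0 h, 1729 to 3520 at 6 h, 1524 to 2203 at 3 h, 3441 to 4617 for the mean of 0 h and 6 h, 2383 to 5212 for the response of NIL-BPH9 and 1257 to 2367 for that of 9311. Without 1 array, the 6 h class held 125 to 212 higher and 90 to 187 lower genes, the 0 h class 269 to 532 and 69 to 208, and 218 to 586 and 194 to 1058 were not told apart. Each array centred on its median gave 544 genes, 1988 at 0 h, 1477 at 6 h, 1014 at 3 h, 92 and 42 in the 6 h class, 185 and 31 in the 0 h class, and 133 and 61 not told apart. The 12 arrays alone gave 855 genes, 70 lower in the 6 h class, 254 and 60 in the 0 h class, and 193 and 155 not told apart. No intensity trend gave 886, with 79, 255 and 67, and 212 and 152 in that order. Array weights gave 2502, with 4859 at 0 h, 2563 at 3 h, 4776 for the response of NIL-BPH9 and 4089 for that of 9311. With these weights, 284 and 272 were in the 6 h class, 236 lower in the 0 h class and 713 lower not told apart. No filter left 287 lower genes not told apart. Without both 0 h arrays numbered 3, an alternative chosen after seeing the data, 169 lower genes came from the 0 h level, and 211 and 257 were not told apart. With the replicate number as a block, 1369 genes passed. Same-numbered arrays correlated by -0.107 to 0.066 over 18 pairs and different-numbered ones by -0.085 to 0.094 over 36 pairs. These correlations gave no sign of pairing by number but cannot exclude it, since they rest on deviations from means of 3 arrays. The cause of these shifts was not tested. Of 761 combinations of a named gene and a setting other than a left-out array, 646 kept their call and 115 lost it; of 936 with 1 array left out, 760 kept it and 176 lost it; 0 changed sign. Of 78 named genes, 44 passed in every one of these fits that tested them.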
